A study of Homo sapiens with 6 samples.

Results

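The genes described here are 10 genes of ligand sensing and metabolic control in liver, namely NR1I2, NR1I3, NR1H4, NR1H3, NR5A2, NR0B2, NR2F2, PPARA, RXRA and AHR. They were taken by name from the 20033 protein-coding genes of GENCODE release 44. The rule that names them uses no measured value, but it was written with earlier results of these data known. Of the 10 genes, 9 encode nuclear receptors. AHR encodes a ligand-activated transcription factor of the bHLH-PAS family, and it is grouped with them here because it senses foreign compounds as NR1I2 and NR1I3 do. Each gene was examined in its gene body (from the first to the last base of the gene), in the windows that reach 2.5 kb to each side of every transcription start site (TSS) of its transcripts, and in the body with 100 kb added on each side.

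The data are genomic regions bound by the TTD, the tandem Tudor domain of the human protein UHRF1, which maintains DNA methylation. The TTD, residues 126 to 280, is a reading domain for the histone H3 tail methylated at K9. Native chromatin was cut to single nucleosomes with MNase, and those held by a GST fusion of the TTD were pulled down and sequenced, a procedure named CIDOP, for chromatin interacting domain precipitation, in which no antibody is needed. All 6 libraries came from HepG2, an established human line derived from a hepatoblastoma, with no treatment named in the labels, and were made by TTD CIDOP, by H3K9me2 ChIP and from input chromatin, with 2 replicates of each kind. The values below rest on the 2 TTD CIDOP libraries alone. The authors pooled them before peak calling, so no value has an error between replicates. The result is 1 list of 31569 broad peaks, which gives positions and widths but no score. A peak here states only that a stretch was listed, and the absence of a peak states only that none was listed. The list does not give the depth of sequencing, the separate libraries were not analysed here, no test was made, and every comparison below is a description of this list. HepG2 is 1 tumor-derived line and not liver tissue, and the list holds no expression, so whether a gene was transcribed in these cells was not measured here. The peaks cover 3.02% of the genome.

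Nuclear receptors are transcription factors whose ligand-binding domain takes up small lipophilic molecules and then exchanges corepressors for coactivators. In hepatocytes, several of them bind DNA as heterodimers with RXRA and adjust the synthesis and transport of bile acids, cholesterol and fatty acids and the clearance of drugs to the amount of their ligands. NR1I2 (PXR) and NR1I3 (CAR) sense drugs and other foreign compounds, and AHR senses dioxin-like aromatic compounds with ARNT as its partner. NR1H4 (FXR) is the bile acid receptor, NR1H3 (LXR alpha) the oxysterol receptor and PPARA the fatty acid receptor. NR5A2 (LRH-1) binds DNA as a monomer at genes of bile acid synthesis, NR0B2 (SHP) lacks a DNA-binding domain and represses other receptors including NR5A2, and NR2F2 (COUP-TFII) is an orphan receptor of development and metabolism.

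The bases just upstream of some starts that differ in their relation to the TTD peaks are shown first. Each line gives the 250 bases that end directly before a TSS, 5′ to 3′ on the plus strand of hg38, in lower case with every CpG dinucleotide in capitals. The start of NR1I2 lies inside a peak, the start of AHR lies shortly downstream of a peak, the most upstream start of NR1H3 lies 10 bp after the end of a narrow peak, and the start of RXRA lies 8386 bp from the nearest peak. The regions are chr3:119781851-119782100 for NR1I2, chr7:17298402-17298651 for AHR, chr11:47248050-47248299 for NR1H3 and chr9:134326205-134326454 for RXRA. The sequences were taken from RefSeq (GRCh38.p14), each at a RefSeq start.
NR1I2: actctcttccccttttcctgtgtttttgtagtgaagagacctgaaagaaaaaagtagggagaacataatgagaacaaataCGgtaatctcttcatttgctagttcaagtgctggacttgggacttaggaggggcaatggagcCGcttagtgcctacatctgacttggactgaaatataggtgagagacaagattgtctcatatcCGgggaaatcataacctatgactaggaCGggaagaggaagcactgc
AHR: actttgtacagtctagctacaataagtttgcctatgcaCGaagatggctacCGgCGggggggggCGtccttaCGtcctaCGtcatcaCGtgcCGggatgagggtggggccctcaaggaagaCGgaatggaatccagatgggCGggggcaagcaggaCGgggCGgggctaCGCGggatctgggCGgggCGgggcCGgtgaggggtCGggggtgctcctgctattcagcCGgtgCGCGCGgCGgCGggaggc
NR1H3: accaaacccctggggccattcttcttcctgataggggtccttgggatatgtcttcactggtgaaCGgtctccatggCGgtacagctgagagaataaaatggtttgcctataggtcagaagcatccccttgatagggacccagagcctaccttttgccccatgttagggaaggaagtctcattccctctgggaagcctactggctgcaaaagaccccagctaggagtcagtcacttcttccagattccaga
RXRA: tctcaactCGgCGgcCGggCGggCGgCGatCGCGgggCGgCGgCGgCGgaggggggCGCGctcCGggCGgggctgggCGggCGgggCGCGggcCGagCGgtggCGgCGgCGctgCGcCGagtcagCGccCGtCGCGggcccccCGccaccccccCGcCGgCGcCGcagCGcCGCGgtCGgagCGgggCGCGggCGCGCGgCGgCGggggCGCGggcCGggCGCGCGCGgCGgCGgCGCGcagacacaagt
All 250 bases of NR1I2 and 241 of those of NR1H3 lay in a TTD peak, compared with 0 bases for AHR and RXRA. The printed bases hold 4 CpG dinucleotides for NR1I2, 2 for NR1H3, 24 for AHR and 59 for RXRA.

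A TTD peak lay in the gene body of 6 of the 10 genes, against 34.2% of all protein-coding genes. The 6 genes were NR1I2, NR1H4, NR5A2, PPARA, RXRA and AHR. A peak lay within 2.5 kb of a TSS of any transcript for 6 of 10 genes, against 24.9% of all genes, and here NR1H3 took the place of RXRA. With the TSS of the Ensembl canonical transcript alone, the number was 3 of 10 against 16.9%, and the genes were NR1I2, NR1H4 and AHR. All 10 genes had a peak within 100 kb, as had 82.4% of all protein-coding genes, so this count lies close to its background. A peak contained a TSS of NR1I2, PPARA and AHR, 3 of 10 genes against 7.94%, and contained the canonical TSS of NR1I2 alone, 1 of 10 genes against 2.19%.

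Long genes have more room for a peak. The median body of the 10 genes was 64.4 kb against 27.5 kb over all protein-coding genes, with 6 genes above that median and 4 below it (NR0B2, NR1I3, NR2F2 and NR1H3). In bodies of 10 kb or less, a peak lay in 8.22% of all genes and in 0 of the 2 genes NR0B2 and NR1I3. In bodies of 10 to 50 kb the share was 26.1%, and 1 of 3 genes had a peak, NR1I2, while NR1H3 and NR2F2 had none. In bodies of 50 to 150 kb the share was 56.9%, and the 4 genes NR1H4, NR5A2, PPARA and RXRA each had a peak. In bodies of 150 kb or more it was 77.2%, and AHR, the 1 gene of this class, had a peak. With the span of the canonical transcript as the gene body, 6 of 10 genes had a peak against 30.6% of all genes.

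Cover, the percent of a region that lies in peaks, had a median over the 10 genes of 1.47% in the body, 7.08% in the TSS windows and 4.83% in the body with 100 kb on each side. The medians over all protein-coding genes were 0%, 0% and 2.11%. The spread among the 10 genes was wide, from 0% to 33.6% in the body, from 0% to 45.3% in the TSS windows and from 0.254% to 19.2% with the flanks. NR1I2 was highest in the body and at the TSSs, and NR1H4 was highest with 100 kb on each side, whereas with 200 kb its cover was 11.8% and that of AHR 13.7%. The median distance from the canonical TSS to the nearest peak was 9046 bp, against 30525 bp over all genes.

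**Figure D1:**
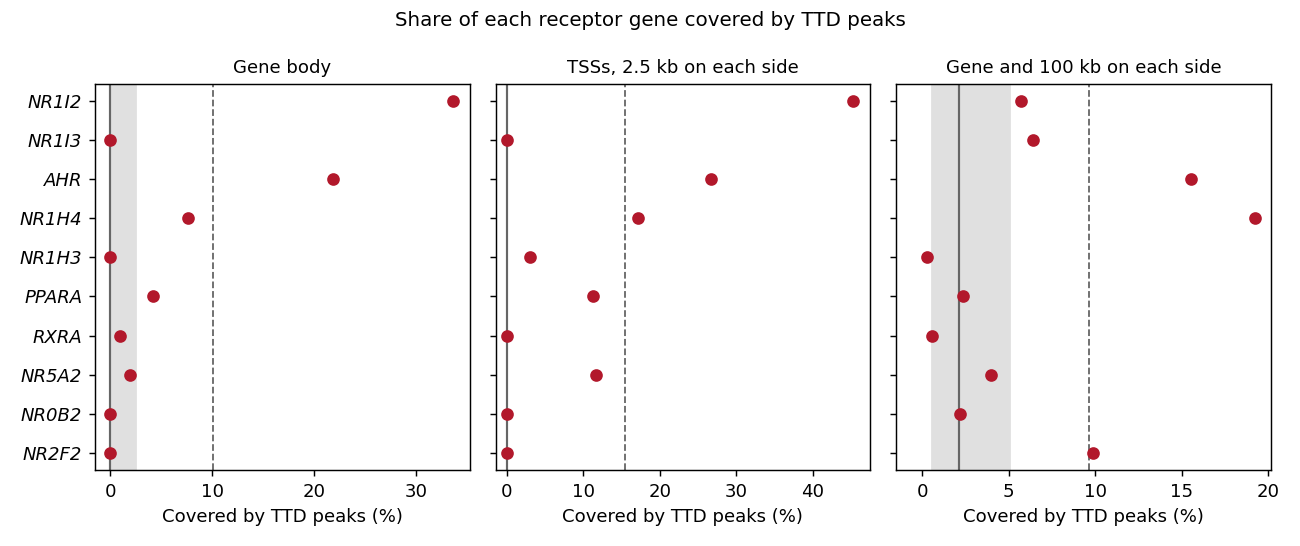
Percent of the gene body (left), of the windows 2.5 kb to each side of all TSSs (middle) and of the body with 100 kb on each side (right) that lies in TTD peaks, 1 point per gene. The gray band is the range from the lower to the upper quartile of 20033 protein-coding genes (in the middle panel this range is 0 wide), the solid line their median and the dashed line the lower bound of their top decile; NR1I2, AHR and NR1H4 have the 3 highest points in the left and middle panels.

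**Figure D2:**
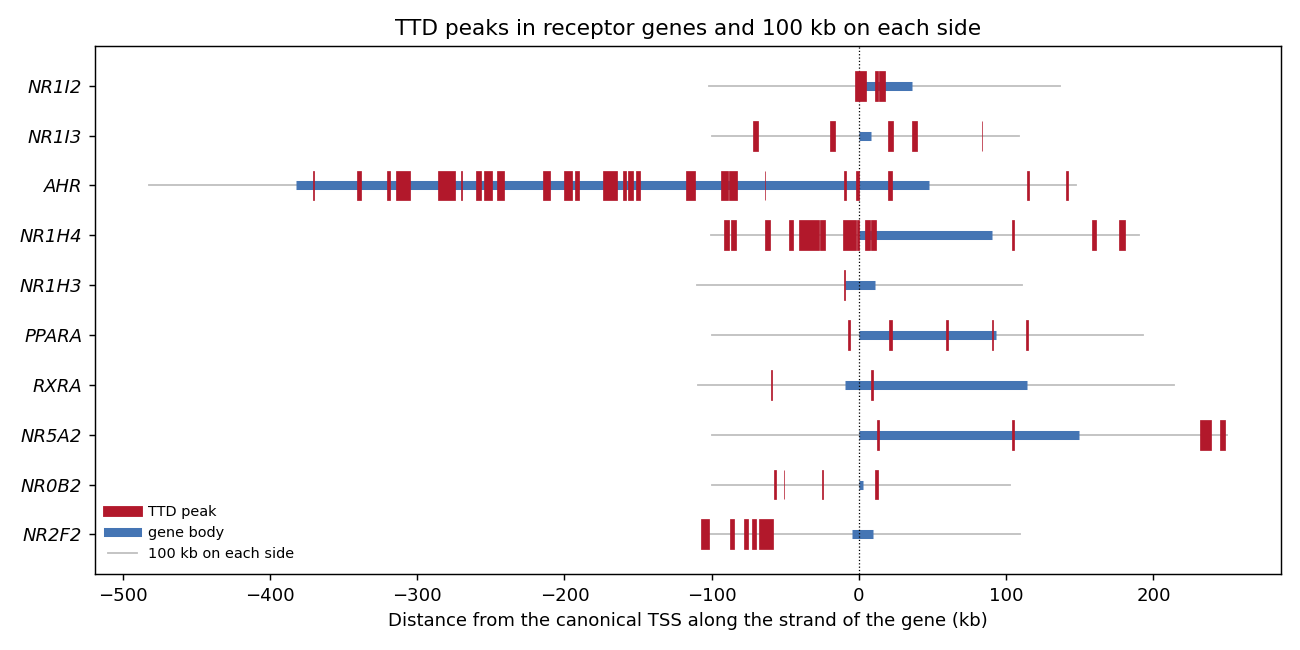
Positions of all 67 TTD peaks (red) relative to the canonical TSS of each gene, in kb along the strand of the gene, with the gene body in blue and 100 kb on each side in gray. The peaks of NR1I2 lie over its start and in intron 1, those of NR2F2 only upstream, and 22 of those of AHR upstream of its canonical TSS but within the annotated gene. Each red bar has a thin outline, so the narrowest peaks look slightly wider than they are.

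Among the 3 sensors of foreign compounds, NR1I2 was covered at its start, AHR next to its start, and NR1I3 not at all within the gene. NR1I2 (ENSG00000144852.20, chr3:119780484-119818487, plus strand) held 3 peaks that covered 33.6% of its 38.0 kb body, and 1.81% of all protein-coding genes were covered as much or more. The widest of them, 7390 bp at chr3:119779671-119787060, reached from 2430 bases before to 4959 bases after the canonical TSS. It contained 4 of the 5 annotated starts and the whole of exon 1 of 9, and covered 98.6% of the 5 kb window around the canonical TSS. Only 0.27% of all protein-coding genes had a canonical window covered as much. The other peaks of NR1I2, of 2180 and 4010 bp, began 10.9 and 13.8 kb downstream in intron 1 and held no exon base. No other peak lay within 100 kb on either side, so the cover with the flanks was 5.71%. The peaks also lie in the span of another annotated coding gene, ENSG00000285585, which overlaps NR1I2, and the list cannot assign them to either gene.

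NR1I3 (ENSG00000143257.12, chr1:161229666-161238244, minus strand) had no peak in its body of 8.58 kb nor within 2.5 kb of any of its 12 distinct starts. The 5 peaks of its flanks, 2 upstream and 3 downstream, were 480, 2920, 3080, 3420 and 3430 bp wide and gave a cover of 6.39% with the flanks. The nearest lay 16568 bp upstream of the TSS at chr1:161254771-161257690, outside any coding gene, and the nearest coding TSS to it was that of PCP4L1. The others lay in neighboring genes. For none of the 5 peaks was NR1I3 the gene with the nearest coding TSS.

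AHR (ENSG00000106546.14, chr7:16916359-17346152, plus strand) held 23 peaks in the annotated body of 430 kb, with a cover of 21.9%, and 3.75% of all genes were covered as much or more. The start of this body is that of 1 transcript, 382293 bases before the canonical TSS, and another transcript starts 166462 bases before it. The canonical transcript spans 47.5 kb and held 1 peak, of 2490 bp in intron 2, with a cover of 5.24%. Of all genes, 16.5% had a canonical span covered as much or more. The stretch of 382 kb between the most upstream start and the canonical TSS held 22 peaks and was covered to 24.0%, against 2.59% of chromosome 7. Their widths ranged from 350 to 11690 bp. The start 166462 bases upstream lay inside a peak of 10030 bp at chr7:17124561-17134590, and its 5 kb window was covered to 98.0%. The start farthest upstream had no peak within 2.5 kb, the nearest lying 11662 bp away. The annotation places 20 of the 23 peaks in the span of a long non-coding RNA gene, so the stretch is not AHR alone. For 12 of the 23 peaks, AHR was the gene with the nearest coding TSS. In the downstream flank, 2 peaks of 1820 and 1760 bp gave a cover of 3.58%. These 2 peaks and the peak in intron 2 also lie in the span of another annotated coding gene.

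At the canonical TSS of AHR, a peak of 1970 bp at chr7:17296431-17298400 ended 252 bp upstream, and none lay within 2.5 kb downstream. NR1H4 had the same arrangement, with a peak of 1020 bp at chr12:100472601-100473620 that ended 246 bp upstream of its canonical TSS. A nearest peak within 500 bp of the canonical TSS but not over it was found for these 2 of the 10 genes, against 4.92% of all genes. In the 2.5 kb upstream of the TSS the cover was 78.8% for AHR and 64.6% for NR1H4, and in the 2.5 kb downstream it was 0% for both. NR1I2 differed from them with 97.2% upstream and 100% downstream. Among the 3394 protein-coding genes with a peak in the canonical window, 49.6% had it upstream only, 27.0% downstream only and 23.4% on both sides, so an upstream peak alone is the most frequent arrangement in the list.

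**Figure D3:**
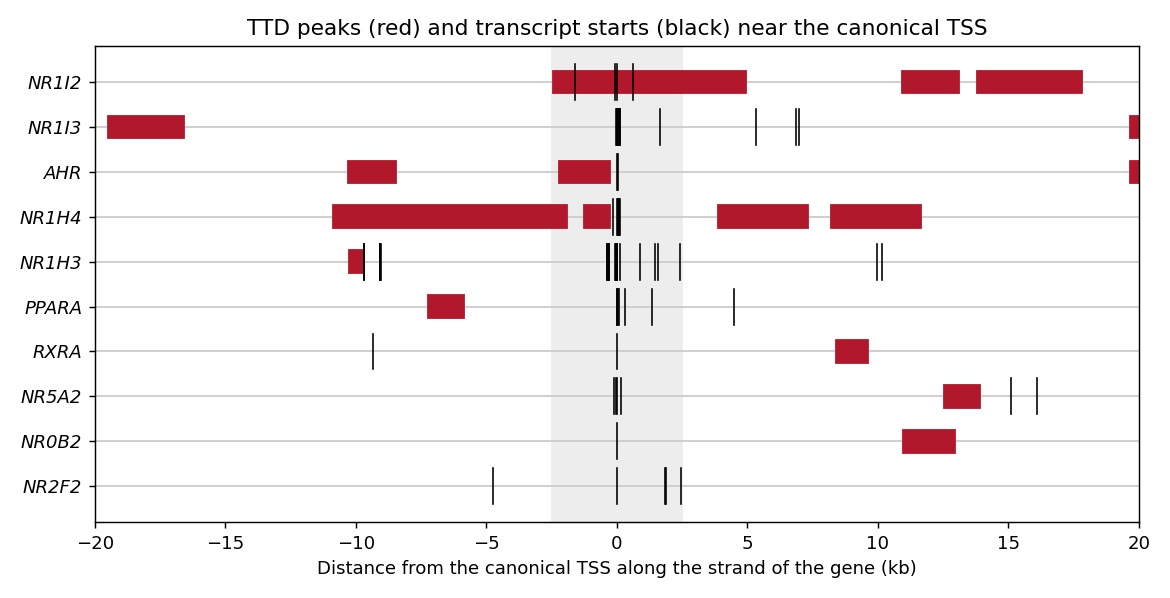
TTD peaks (red bars) and annotated transcript starts (black ticks) within 20 kb of the canonical TSS of each gene, in kb along its strand; the gray band marks 2.5 kb on each side. The peak of NR1I2 spans the band, those of AHR and NR1H4 end 252 and 246 bp before the canonical TSS, and the band is free of peaks in the other 7 genes.

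NR1H4 (ENSG00000012504.15, chr12:100473708-100564414, plus strand) stood out by its upstream flank. The 100 kb before the gene held 8 peaks with a cover of 40.1%, and 0.654% of all protein-coding genes had an upstream flank covered as much. Of these, 5 peaks lay in the 51.7 kb between NR1H4 and its upstream neighbor SLC17A8, a vesicular glutamate transporter gene, and covered 58.0% of this stretch. The widest, 13820 bp at chr12:100433101-100446920, was the widest of all 67 peaks, and 0.836% of the whole list was as wide. It ended 26.9 kb upstream of the canonical TSS, and a further peak of 8990 bp ended 1906 bp upstream. The other 3 upstream peaks, of 3330, 3470 and 3400 bp, lay within SLC17A8. In the body of 90.7 kb, 2 peaks of 3470 and 3440 bp lay in intron 1, beginning 3855 and 8215 bases after the TSS, and the remaining introns and all exons were free of peaks. The body was covered to 7.62% and the TSS windows to 17.1%. The downstream flank held 3 peaks and was covered to 8.72%. With its flanks, NR1H4 had 13 peaks and a cover of 19.2%, and 2.25% of all genes were covered as much.

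NR1H3 (ENSG00000025434.19, chr11:47248300-47269033, plus strand) had the lowest cover of the 10 genes with 100 kb on each side. Its body of 20.7 kb held no peak, and 1 peak of 560 bp at chr11:47247731-47248290 was the only peak within 100 kb. This peak ended 10 bp before the most upstream of 27 distinct starts and lay in ACP2, an acid phosphatase gene that overlaps the start of NR1H3. The cover was 3.00% in the TSS windows and 0.254% with the flanks, and 80.9% of all genes had as much or more with the flanks. From the canonical TSS the same peak was 9706 bp away. Both oxysterol and bile acid receptors belong to the NR1H group and pair with RXRA, and with 100 kb on each side they were the lowest and the highest of the 10 genes in cover. With 200 kb on each side RXRA (0.336%) lay below NR1H3 (0.475%) and AHR (13.7%) above NR1H4 (11.8%), and with 50 kb NR2F2, at 0%, was the lowest.

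PPARA (ENSG00000186951.17, chr22:46150521-46243755, plus strand) had 3 narrow peaks in its body of 93.2 kb, with a cover of 4.25%. The widest, 2180 bp at chr22:46170831-46173010 in intron 2, contained 2 internal starts, both of transcripts without a defined coding sequence, and covered 43.6% of the window of each. The peak of 790 bp lay in intron 4. The peak of 990 bp at chr22:46240761-46241750 lay wholly inside exon 9 of 9, with 0 coding bases in it, and was therefore in the 3′ UTR. Around the canonical TSS no peak was listed, the nearest being 1380 bp wide and ending 5866 bp upstream. With the flanks, PPARA had 5 peaks and a cover of 2.34%, close to the median of 2.11% over all genes.

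RXRA (ENSG00000186350.12, chr9:134317098-134440585, plus strand), the shared heterodimer partner, had 1 peak of 1250 bp in its body of 123 kb, a cover of 1.01%. It lay in intron 1 and began 8386 bases downstream of the canonical TSS. None of its 5 starts had a peak within 2.5 kb. A peak of 510 bp lay 59.0 kb upstream, and the cover with the flanks was 0.544%.

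The gene of the monomeric receptor NR5A2 (ENSG00000116833.14, chr1:200027614-200177420, plus strand) had no peak near its canonical TSS. In its body of 150 kb, a peak of 1400 bp lay in intron 2 and a peak of 1480 bp in intron 7, with a cover of 1.92%. The first ended 1195 and 2180 bp upstream of the internal starts of 2 shorter protein-coding transcripts, which gave the TSS windows a cover of 11.6%. No peak lay in the 100 kb upstream. Downstream, 2 peaks of 7250 and 3680 bp lay in the non-coding gene LINC00862 and covered 10.9% of the flank.

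NR0B2 (ENSG00000131910.5, chr1:26911489-26913975, minus strand), the shortest gene at 2.49 kb with 1 transcript, had no peak in the body or within 2.5 kb of its TSS. Its flanks held 4 peaks of 420, 660, 1370 and 2010 bp, and the cover of 2.2% was close to the median over all genes. The nearest, at chr1:26901021-26903030, lay 10945 bp downstream in NUDC, a gene of nuclear movement, which held 2670 bp of the 4 peaks.

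NR2F2 (ENSG00000185551.15, chr15:96325938-96340263, plus strand) had no peak in its body of 14.3 kb, within 2.5 kb of any of its 5 starts, or in the 100 kb downstream. All 5 of its peaks lay upstream, the nearest 58290 bp and the farthest about 102 kb from the canonical TSS, and covered 21.1% of the upstream flank. Of all genes, 3.41% had an upstream flank covered as much. The peaks were 2460, 3000, 3110, 5110 and 9630 bp wide and lay in the span of the antisense gene NR2F2-AS1. The coding TSS nearest to each of the 5 peaks was that of NR2F2 and no other coding gene lies within 100 kb of it. NR2F2 and NR1H4 thus shared a covered upstream flank, but the nearest peak ended 246 bp before the canonical TSS in NR1H4 and 58290 bp before it in NR2F2.

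The 67 peaks within 100 kb of the 10 genes had a median width of 2940 bp, from 350 to 13820 bp, against 2250 bp in the whole list. Widths differed between the genes. The medians were 4010 bp for NR1I2, 3440 bp for NR1H4, 3110 bp for NR2F2, 3080 bp for NR1I3, 2940 bp for AHR and 2580 bp for NR5A2, but 1380 bp for PPARA, 1015 bp for NR0B2, 880 bp for RXRA and 560 bp for NR1H3. All peaks of PPARA, RXRA, NR0B2 and NR1H3 were narrower than the median of the list, and all 5 peaks of NR2F2 were wider. Peaks of 1 gene share their chromosomal surroundings and are not independent measurements. Of the 67 peaks, 61 held no exon base of these genes and 6 touched an exon. The receptor gene had the nearest coding TSS for 33 of the 67 peaks. Of the 33 peaks that lay in the flanks only, 13 lay in another coding gene. The median GC content of the 67 peaks was 41.4%, against 43.2% in the whole list, and ranged by gene from 38.4% for AHR to 56.8% for RXRA.

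**Figure D4:**
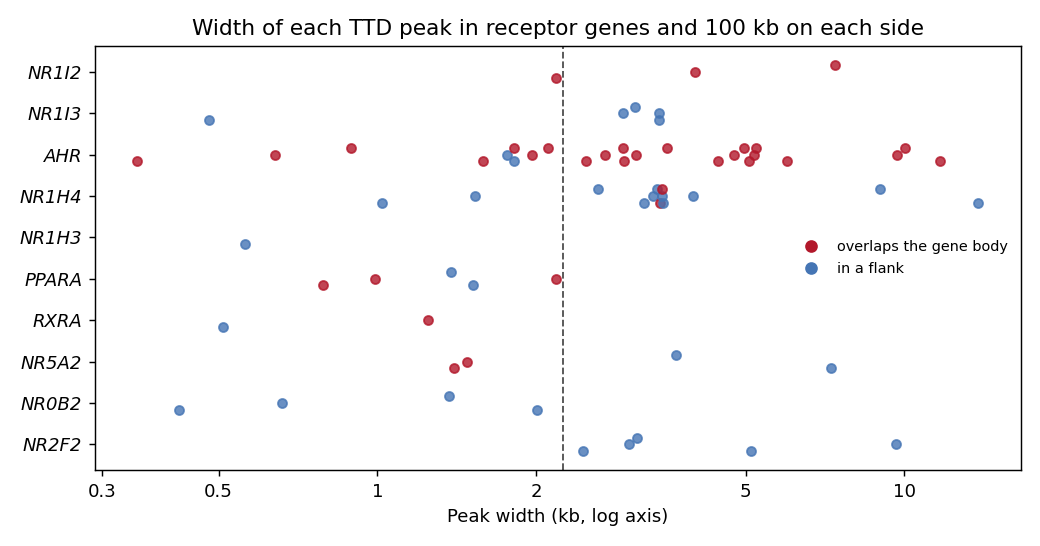
Width of each of the 67 TTD peaks on a log axis, 1 point per peak, red where it overlaps the gene body and blue in a flank; the small vertical offsets only separate points. The dashed line is the median of the whole list, 2250 bp, and all points of PPARA, RXRA, NR0B2 and NR1H3 lie below it.

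The 10 genes divide by the base composition of their starts, a property the choice of genes and the peak list did not use. The CpG observed/expected ratio of the 1 kb around the canonical TSS had a median of 0.237, against 0.725 over all protein-coding genes. It was low for NR5A2 (0.0684), NR1I3 (0.199), NR1H3 (0.208), NR1H4 (0.223), NR0B2 (0.225) and NR1I2 (0.249), and high for AHR (0.859), PPARA (0.925), RXRA (1.05) and NR2F2 (1.08). No gene lay between 0.249 and 0.859. A peak within 2.5 kb of the canonical TSS was found for NR1I2 and NR1H4 in the low group and for AHR in the high group, so the division by CpG content was not a division by TTD peaks.

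In the RefSeq promoter windows, which run from 250 bases before to 50 bases after a start, 9 of the 10 genes were matched with 17 windows, and NR0B2 was not. The window of NR1H4 belongs to an internal start at position 100503360 of chromosome 12, and the canonical TSS of this gene was not among the windows, so it does not describe the bases next to the upstream peaks. Of the 17 windows, 3 touched a peak, both windows of NR1I2 wholly and the most upstream window of NR1H3 in part, against 4.71% of 35116 windows with any base and 2.94% with all bases in a peak. The nuclear receptor half-site AGGTCA, searched on both strands, occurred in 3 of the 17 windows, 1 each of NR1H4, NR1H3 and NR5A2, against 13.8% of all windows. Its direct repeat with 1 base between, the DR1 element, occurred in 0 of 17 windows and in 0.0228% of all windows. The core GCGTG of the element bound by AHR occurred in 5 windows, against 36.5%, and TATAAA in 1 window, that of NR5A2, against 11.5%. A match describes the letters and not a bound site.

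The wider pathway was described with lists of related genes. Of 39 other nuclear receptor genes, 18 (46.2%) had a peak in the body against 34.2% of all protein-coding genes, with a median body length of 53.7 kb, 9 (23.1%) in the TSS windows against 24.9% and 34 (87.2%) within 100 kb against 82.4%, and 0 had a peak over the canonical TSS against 2.19%. The shares for the TSS windows and within 100 kb lie near their background. Body shares of the gene lists were not compared within classes of gene length. Over all protein-coding genes the body share was 26.1% for bodies of 10 to 50 kb, 56.9% for 50 to 150 kb and 77.2% for 150 kb or more. The median cover of their TSS windows was 0%, and of the body with flanks 2.28%. The highest cover of the TSS windows was found in NR1D1, a heme-binding clock repressor (21.4%), THRB, a thyroid hormone receptor (21.1%) and NR6A1, an orphan receptor of germ cells (18.7%). Of 15 genes for partners and coregulators, 12 (80%) had a peak in the body against 34.2%, with a median body length of 149 kb, 9 (60%) in the TSS windows against 24.9% and 15 (100%) within 100 kb against 82.4%, and 0 had a peak over the canonical TSS. PPARGC1A, a coactivator of fasting metabolism, had the highest cover of the TSS windows (37.0%), before NCOA2, a steroid receptor coactivator (14.6%), and MED1, a Mediator subunit (13.5%).

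Of 28 target genes of the receptors in liver, 18 (64.3%) had a peak in the body against 34.2% of all genes, with a median body length of 26.9 kb, 12 (42.9%) in the TSS windows against 24.9% and 28 (100%) within 100 kb against 82.4%. A peak contained the canonical TSS of 4 of the 28 genes, against 2.19% of all genes. The cover of the TSS windows was highest for CYP8B1, a sterol hydroxylase of bile acid synthesis (76.9%), SLC51B, a subunit of the bile acid exporter OST (59.4%), and UGT1A1, the bilirubin glucuronosyltransferase (54.4%). UGT1A1 shares its span with other genes of the UGT1A cluster. The median cover of the TSS windows over the 28 genes was 0%, and of the body with flanks 3.16%, between the 2.11% of all genes and the 4.83% of the 10 genes. None of these differences was tested.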

How the data were processed

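TTD CIDOP, H3K9me2 ChIP and input were sequenced from HepG2 cells, 2 libraries each. The authors trimmed reads with Trimmomatic (0.38), checked them with FastQC (0.72), mapped them to hg38 with HISAT2 (2.2.1) and computed coverage in 10 bp bins with deepTools (3.3.2). They called broad peaks on the mean of the TTD replicates with MACS2 (2.1.1) and curated them by hand. Deposited values are start, end and width in bp of 31569 peaks, with no score. The list gives neither depth nor replicate error.

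Gene spans, TSSs and canonical transcripts were taken from GENCODE release 44. Peaks overlapping a region by 1 bp or more were counted, and cover is the percent of its bases in peaks. Shares over 20033 protein-coding genes serve as background, and no test was made. The CpG ratio used 1 kb around the canonical TSS. The members and lists were chosen with earlier results of these data known. All members were named, with up to 3 genes per list by cover of the TSS windows, and the neighbor with the most peak bases, of which 1 is not reported here. PCP4L1, LINC00862, NR2F2-AS1 and ENSG00000285585 were named after their values were seen. The interval arithmetic matched a brute-force count in 200 of 200 simulated sets. The tools were samtools 1.23.1, Python 3.11.15, matplotlib 3.10.9, numpy 2.4.6 and pysam 0.24.0. Alternatives were stricter peak lists, other overlap rules, other TSS sets and other flank lengths, and, added after seeing the data, the canonical transcript span. The signals of the separate libraries were not analysed here.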

Additional observations from a re-analysis of the deposited data

How the results depend on the processing

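With only the 15790 peaks of 2250 bp or more, the median width, a peak lay in the body of 3 genes (20.5% of all genes), within 2.5 kb of a TSS of 3 (12.3%) and within 100 kb of 6 (59.2%). The median cover was then 0% in the body, 0% in the TSS windows and 3.96% with the flanks. The 3 genes were NR1I2, NR1H4 and AHR for the body and for the TSS windows, while NR1H3, NR0B2, PPARA and RXRA kept no peak within 100 kb. With the 27244 peaks of at least 1 kb, the median cover of the TSS windows was 5.58%. With the canonical TSS alone, 3 genes had a peak within 2.5 kb, 1 gene had a peak over the TSS and the median cover was 0%, and with TSSs of protein-coding transcripts it was 2.08%. With 50 kb on each side the median cover was 3.08%. The order of the genes by cover with the flanks changed with the flank length: NR1I3 was above NR1I2 with 100 kb (6.39% and 5.71%) but below it with 50 kb (8.68% and 9.84%) and 200 kb (4.56% and 5.31%). The other 23 alternatives for these counts and medians stayed within 1.5 times the count or within the counting interval of the cover. No paired analysis was possible because the replicates were pooled into 1 list before peak calling, and this list alone was used here. For the same reason, no replicate could be left out of the list. The libraries of each replicate exist separately, but no analysis of them, paired or with a replicate left out, was made.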
